A study of Mus musculus with 19 samples.

Results

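In CD11c-low microglia of cuprizone-fed mice, 271 H3K27ac peaks were listed as different between cells with PRMT1 (WT) and cells from mice in which it was deleted (KO), of which 222 were higher and 49 lower in KO. The members are every peak that the authors listed for this comparison (adjusted p under 0.05 and an absolute log2 fold change over 1), out of 25609 peaks tested and of 14035 peaks listed over the 5 comparisons of the study. The listed peaks were thus 1.06% of those tested, 0.867% as higher and 0.191% as lower peaks. Because the peaks were chosen by this contrast, the difference between KO and WT at each of them is a description with no test, and with 2 libraries a side the smallest two-sided p of an exact permutation test would be 0.3333.

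H3K27ac, the acetylation of histone H3 at lysine 27, was measured by ChIP-seq, in which chromatin is pulled down with an antibody and sequenced. WT mice carried the floxed allele without Cre (PRMT1Ifl/fl in the labels) and KO mice carried it with a Cre that tamoxifen activates (PRMT1fl/fl; cx3r1cre-ert2), all on C57BL/6, and the methods state that floxed control mice and knockouts alike were given tamoxifen before the cuprizone diet. Mice of 4 to 6 weeks entered the experiment, both groups ate 0.2% cuprizone for 5 weeks, and cells were sorted from the brain by CD11b and CD45 (for microglia, CD45-intermediate in the study's methods) and by low surface CD11c, with 2 libraries a group. The Cx3cr1 driver is active in microglia and in other Cx3cr1-expressing myeloid cells, and Cre was present in the KO group only, so that the effects of Cre and of PRMT1 loss cannot be told apart. The KO cells had 1 input library for 2 H3K27ac libraries, and the WT cells had 2.

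As background, H3K27ac lies on active enhancers and promoters, is written by the acetyltransferases p300 and CBP and is removed by histone deacetylases. PRMT1 is the main enzyme that places asymmetric dimethyl marks on arginine, on histone H4 among many proteins. Cuprizone is a copper chelator that kills oligodendrocytes, and microglia of the demyelinated brain clear myelin, and some take on CD11c, the integrin encoded by Itgax.

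No listed peak was nearest to Prmt1 or to Cx3cr1. In the RNA tables, with 1 library a side, Prmt1 was at 145.84 normalized counts in WT (158 reads) and 92.73 in KO (85 reads), a log2 difference of -0.65, so the transcript was still read in the KO library. At the protein level, the study reports by immunoblot that microglia isolated from KO mice lost PRMT1 and had less of its mark on histone H4. All deposited tag counts came out as whole reads (100% of values, within 0.0084 to 0.0094 reads), which gave relative depths of 106.7% and 99.97% for the WT and 90.8% and 102.6% for the KO libraries. The median listed peak held 68 and 61 reads in WT and 117 and 109 in KO. All 12 microglial defining markers lay within 2-fold in the RNA, with summed levels of 16752 in WT and 19269 in KO.

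Sequences at 6 of the loci that carry the results are given here. They were chosen because Zfp618, Trim16 and A530064D06Rik were high in both H3K27ac and RNA of the KO cells, Hlf held the lower peak with the largest difference, and the starts of Il18bp and Klrb1b lay inside a listed peak. All are from GRCm38.p6 (mm10), 5′ to 3′, with any match to 1 of 13 searched motifs in capitals. The first 3 are promoters from RefSeq, 250 bases before to 50 after the start, on the strand of the gene. The promoter of A530064D06Rik (chr17:48167208-48167507, minus strand) held the PU.1 and ETS letters, that of Il18bp (chr7:102018183-102018482, minus strand) held a C/EBP match, and that of Klrb1b (chr6:128826266-128826565, minus strand) held no match. The promoters of Gclm, Pla2g7 and Htr2b also lay inside a higher peak and are not printed. Of these, that of Htr2b held an AP-1 match and those of Gclm and Pla2g7 held no match.

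A530064D06Rik promoter: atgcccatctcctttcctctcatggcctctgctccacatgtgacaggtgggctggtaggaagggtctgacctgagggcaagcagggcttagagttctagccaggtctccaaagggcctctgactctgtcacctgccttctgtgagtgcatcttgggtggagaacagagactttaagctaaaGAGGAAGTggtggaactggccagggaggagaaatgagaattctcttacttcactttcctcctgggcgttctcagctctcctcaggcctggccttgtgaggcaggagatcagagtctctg
Il18bp promoter: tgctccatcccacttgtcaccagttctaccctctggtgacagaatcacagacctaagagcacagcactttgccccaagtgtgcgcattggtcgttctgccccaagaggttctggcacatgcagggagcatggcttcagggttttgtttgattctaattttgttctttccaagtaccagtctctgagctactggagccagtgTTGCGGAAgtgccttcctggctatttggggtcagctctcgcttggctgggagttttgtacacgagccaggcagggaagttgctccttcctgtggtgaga
Klrb1b promoter: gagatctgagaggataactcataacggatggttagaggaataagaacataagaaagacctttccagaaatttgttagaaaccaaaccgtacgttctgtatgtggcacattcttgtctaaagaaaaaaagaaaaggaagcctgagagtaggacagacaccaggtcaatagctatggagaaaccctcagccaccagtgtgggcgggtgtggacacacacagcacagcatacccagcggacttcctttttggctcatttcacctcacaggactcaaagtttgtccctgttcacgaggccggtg

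The other 3 are the central 300 bases of peaks on the plus strand. They are the intron peak of Zfp618 (chr4:63049648-63049947), which held a RUNX match, the exon peak of Trim16 (chr11:62820610-62820909) and the intron peak of Hlf that was lowest in KO (chr11:90356028-90356327), the latter both without a match.

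Zfp618 peak centre: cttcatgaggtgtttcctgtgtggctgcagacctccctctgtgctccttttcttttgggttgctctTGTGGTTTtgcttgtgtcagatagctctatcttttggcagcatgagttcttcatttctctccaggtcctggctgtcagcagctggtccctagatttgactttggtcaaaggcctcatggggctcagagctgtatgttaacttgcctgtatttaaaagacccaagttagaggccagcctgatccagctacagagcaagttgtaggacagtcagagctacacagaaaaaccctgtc
Trim16 peak centre: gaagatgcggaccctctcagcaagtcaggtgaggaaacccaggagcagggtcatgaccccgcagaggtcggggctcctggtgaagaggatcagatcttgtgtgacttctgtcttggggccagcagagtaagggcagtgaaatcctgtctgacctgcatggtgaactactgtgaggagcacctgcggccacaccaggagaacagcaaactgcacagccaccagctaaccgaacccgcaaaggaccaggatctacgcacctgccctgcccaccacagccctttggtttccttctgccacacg
Hlf peak centre: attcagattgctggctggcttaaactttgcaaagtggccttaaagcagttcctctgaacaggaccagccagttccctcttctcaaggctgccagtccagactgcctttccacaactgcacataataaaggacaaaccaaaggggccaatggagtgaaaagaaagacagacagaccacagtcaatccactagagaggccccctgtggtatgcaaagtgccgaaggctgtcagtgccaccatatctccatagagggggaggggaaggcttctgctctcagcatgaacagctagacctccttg

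PU.1 and ETS letters (GAGGAAGT) occurred on either strand in 3.28% of 27025 RefSeq promoters of the same length, C/EBP letters (TTGCNNAA) in 10.8% and RUNX letters (TGTGGTTT) in 1.86%. A match describes the letters only.

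The 222 higher peaks were nearest to 185 genes. Their median log2 difference, taken as the mean of log2(tags + 1) in KO minus that in WT, was 1.45 (from 0.98 to 4.33). The median peak held 51.1 and 48.5 tags in the WT libraries and 150.9 and 125.8 tags in the KO libraries. KO replicate 1 stood further from WT than KO replicate 2: its median difference from the WT mean was 1.62 against 1.25, and it was above KO replicate 2 at 165 of the 222 peaks. At 213 peaks KO replicate 1 was at least 2-fold above the WT mean, at 171 KO replicate 2 was, and at 162 both were. The KO libraries differed from each other by 2-fold or more at 27 higher peaks and the WT libraries at 8.

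**Figure D1:**
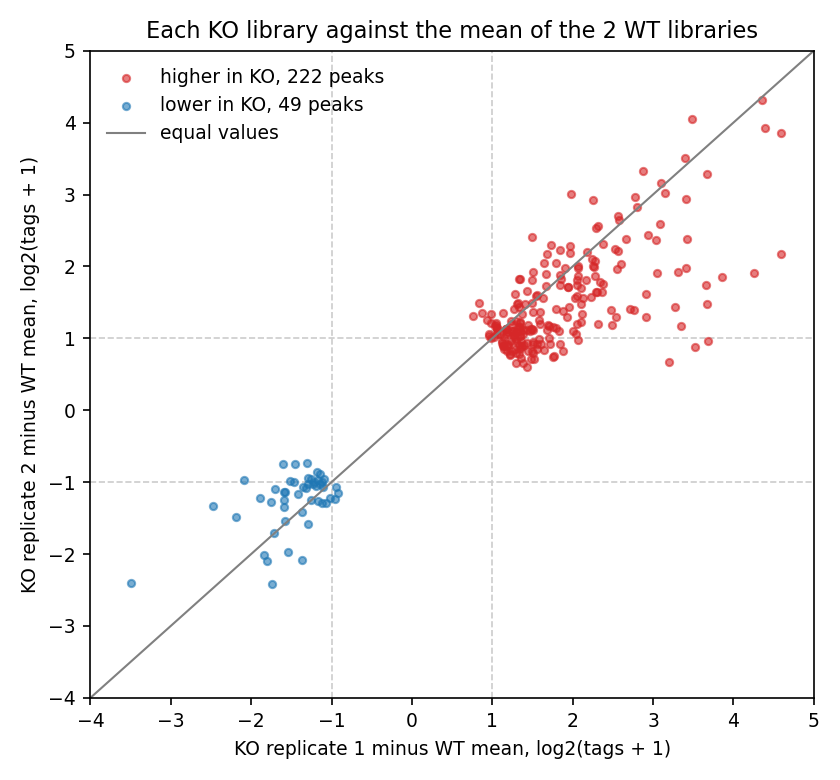
Each point is 1 of the 271 listed peaks. The axes give the log2(tags + 1) difference of KO replicate 1 (horizontal) and KO replicate 2 (vertical) from the mean of the 2 WT libraries; most higher peaks lie below the line of equal values, with medians of 1.62 and 1.25.

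Among single peaks with a KO mean of at least 50 tags and at most 1 peak a gene, the intron of Zfp618, a zinc finger protein, was among those with the largest difference. The peak (chr4:63048160-63051435) held 26.2 and 22.01 tags in the WT libraries and 220.4 and 202 tags in the KO libraries, a log2 difference of 3.08 ± 0.14 (SE). Both KO libraries lay above both WT libraries, as at all 222 higher peaks, which the choice of the peaks by this contrast leads to. The KO libraries at the Zfp618 peak were close to each other. An intron peak of Gdpd5, which codes for a phosphodiesterase that cleaves glycerophospholipids and GPI anchors (chr7:99389799-99391467), held 5.62 and 9 tags in WT and 84.8 and 91.7 tags in KO, a log2 difference of 3.45 ± 0.30. Its second intron peak (chr7:99407800-99408825) held 36.5 and 48.02 tags in WT and 108 and 99.5 tags in KO. The WT libraries held under 10 tags each at the first Gdpd5 peak and more at the second.

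Over the start of A530064D06Rik (chr17:48165948-48167942) there were 14.1 and 19.01 tags in the WT libraries and 101 and 112 tags in the KO libraries, a log2 difference of 2.63 ± 0.22. The promoter printed above lay inside this peak. Trim16, a tripartite motif protein known for its part in the response to damaged lysosomes and oxidative stress, had an exon peak at its start (chr11:62820065-62821454) with 20.6 and 25.01 tags in WT and 117 and 139 tags in KO, a log2 difference of 2.44 ± 0.18. A second peak upstream of Trim16 (chr11:62809870-62811135) held 9.37 and 23.01 tags in WT and 65 and 61.4 tags in KO, and here the WT libraries differed from each other by more than 2-fold. An intron of Ccnk, the gene of cyclin K, which with its kinase partners phosphorylates RNA polymerase II (chr12:108193163-108196369), held 21.6 and 24.01 tags in WT and 164 and 168 tags in KO, and the KO libraries were almost equal.

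Other peaks with a large log2 difference were less even between the KO libraries. In Nav2, a gene of the neuron navigator family (chr7:49251066-49253140), the libraries held 11.2 and 14 tags in WT and 196 and 47.8 tags in KO. At Lyz1, a lysozyme gene (chr10:117302202-117303575), they held 9.37 and 11 tags in WT and 107 and 29.2 tags in KO, and in an intron of Syne1, which codes for a nuclear envelope spectrin repeat protein (chr10:5287526-5290373), 13.1 and 19.01 tags in WT and 177 and 65.3 tags in KO. In all 3, KO replicate 1 was more than 2-fold above KO replicate 2, and with KO replicate 2 alone the log2 differences were 1.85, 1.44 and 1.98, against 2.85, 2.36 and 2.69 with both. By contrast the intron peaks of Epn2, an endocytic adaptor (16.9 and 17.01 tags in WT and 112 and 92.6 tags in KO), and of Iqgap1, a cytoskeletal scaffold (27.2 and 20.01 tags in WT and 143 and 112 tags in KO), were similar in both KO libraries.

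**Figure D2:**
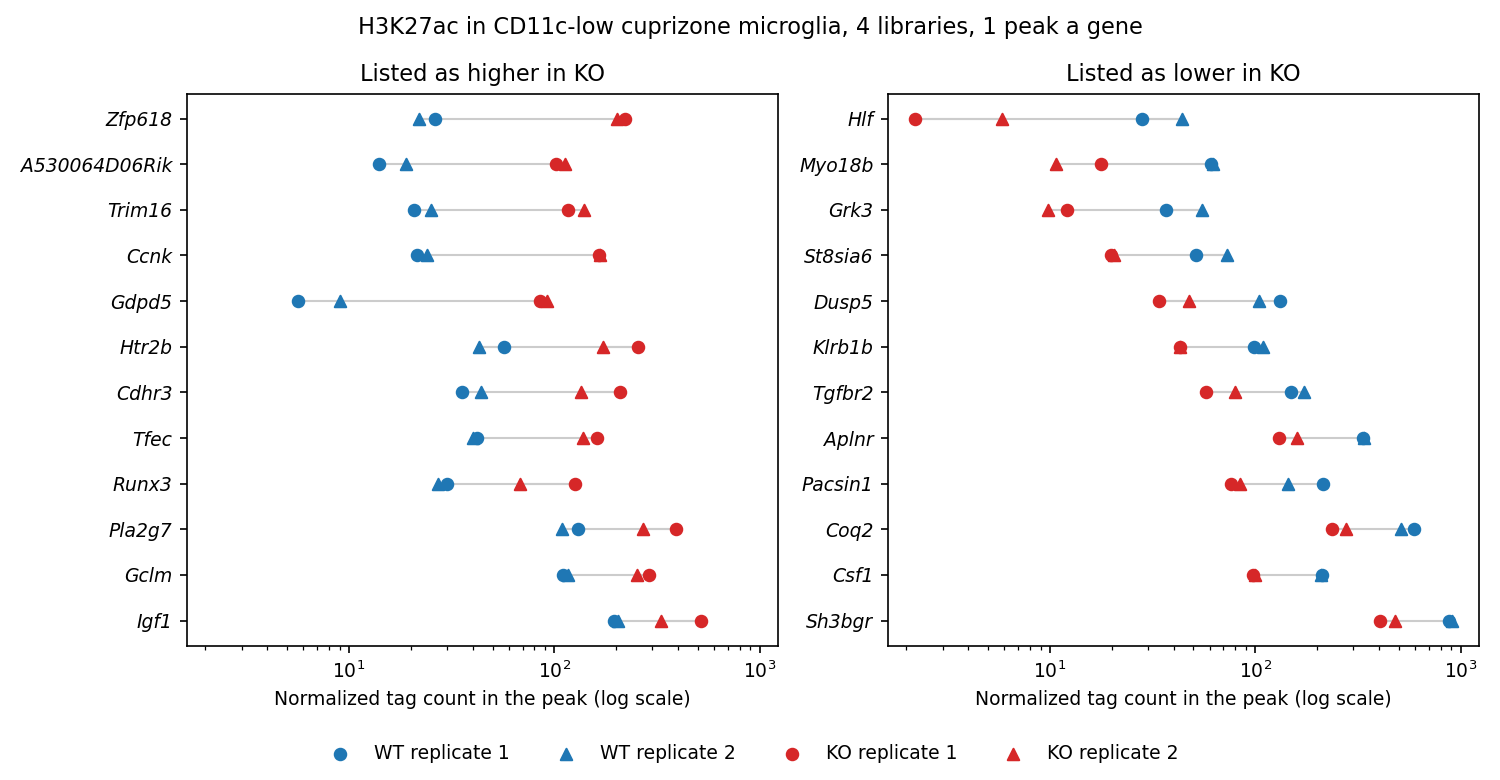
Normalized tag counts (log scale) in the 4 libraries at 1 listed peak of each of 24 genes, 12 from each list, with WT in blue, KO in red, circles for replicate 1 and triangles for replicate 2. The colours do not overlap in any row, as the choice of the peaks by this contrast leads to; the highest value is Sh3bgr in WT replicate 2.

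Of the higher peaks, 163 were called as a peak in the KO cells alone and 59 in both genotypes. The former went from a median WT mean of 34.7 tags to a KO mean of 111 tags (median log2 difference 1.72) and were 1556 bp wide at the median. The latter went from 107 to 257 tags (1.15) and were 2901 bp wide. Of all higher peaks, 32 had a WT mean under 10 tags. The value of 4.33 belongs to a Tbc1d14 peak with 0.94 and 2 tags in WT and 48.5 and 46.8 tags in KO, where the difference depends on the pseudocount of 1.

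Higher peaks lay close to one another at many loci: 66 of the 222 fell into 26 clusters with gaps of 50 kb or less. The largest cluster held 7 peaks over 48.0 kb in Mtss1, whose protein links membrane curvature to actin, and the neighbouring Ndufb9. At the tallest Mtss1 peak (chr15:59037101-59038995) there were 118 and 147 tags in WT and 372 and 234 tags in KO, and at the next tallest (chr15:59029341-59031097) 54.4 and 69.02 tags in WT and 292 and 185 tags in KO. KO replicate 1 was the highest library at all 7. Mtss1 RNA was 195 in WT and 316 in KO, within 2-fold.

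In Cdhr3, a cadherin-related gene, 3 intron peaks were higher. The widest (chr12:33040155-33046518) held 185 and 194 tags in the WT libraries and 977 and 596 tags in the KO libraries. The second (chr12:33034810-33036650) held 35.6 and 44.01 tags in WT and 209 and 136 tags in KO and the third (chr12:33064605-33066055) 32.8 and 35.01 tags in WT and 87.04 and 93.6 tags in KO; the KO libraries were apart at the first 2 and alike at the third. Dapk1, a calcium-dependent kinase of cell death, also had 3 peaks, the tallest of which (chr13:60660166-60662743) held 40.3 and 35.01 tags in WT and 199 and 191 tags in KO. Sash1, a signalling scaffold, had 3 broad intron peaks with small differences, from 1.00 to 1.22, and held up to 449.9 and 366 tags in WT and 924 and 752 tags in KO.

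**Figure D3:**
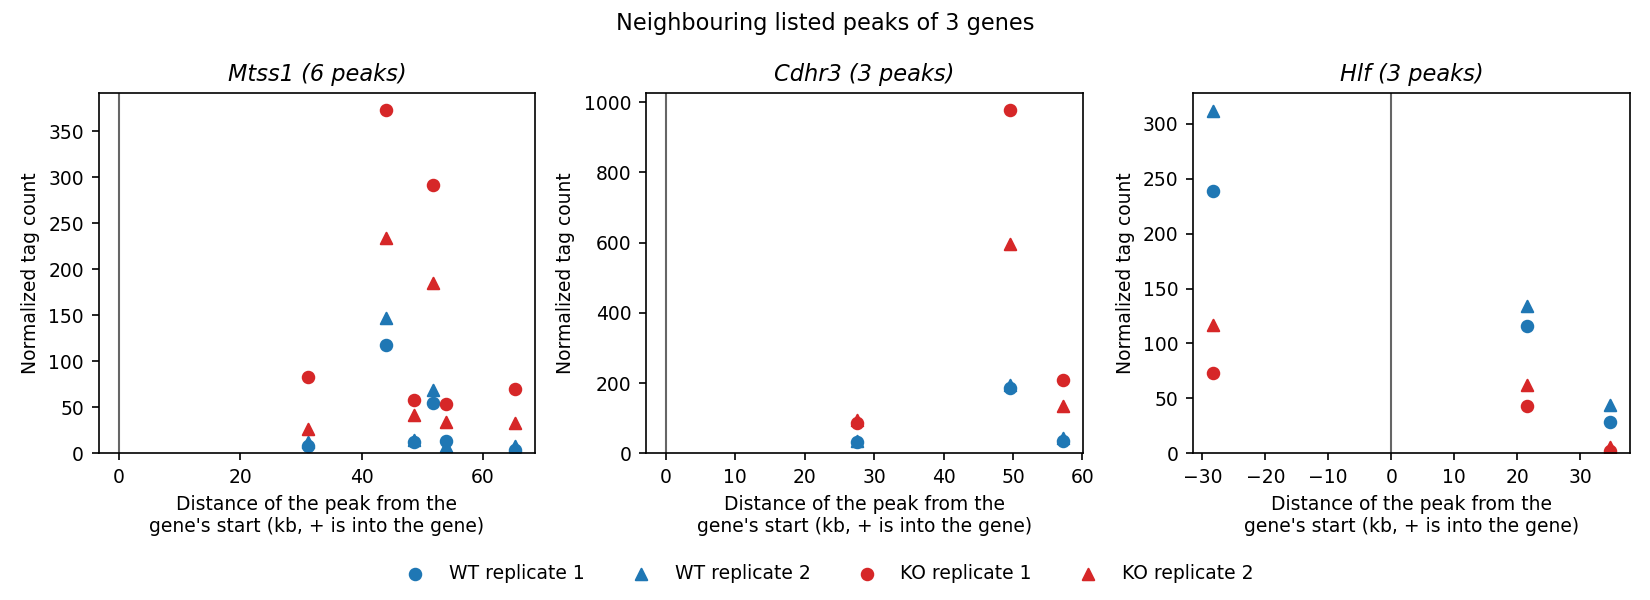
Normalized tag count of each listed peak nearest to Mtss1, Cdhr3 and Hlf against its distance from the start of the gene in kb, with WT in blue, KO in red, circles for replicate 1 and triangles for replicate 2. At each Mtss1 and Cdhr3 peak both KO libraries are above both WT libraries, and at each Hlf peak they are below. The groups overlap at no listed peak (222 higher and 49 lower), as the choice of the peaks by this contrast leads to.

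Higher peaks were listed near Gclm, Pla2g7, Htr2b, Nlrc3 and Il18bp. Gclm, the modifier subunit of the enzyme that limits glutathione synthesis, had a promoter peak (chr3:122242734-122246575) with 109.7 and 117 tags in the WT libraries and 289 and 253 tags in the KO libraries, a log2 difference of 1.25 ± 0.10. Pla2g7, the secreted phospholipase that degrades platelet-activating factor, had 2 peaks, of which the one at its start (chr17:43567825-43570977) held 130.3 and 109 tags in WT and 390.0 and 270.1 tags in KO. Both genes had replicates close to each other in WT and further apart in KO. Htr2b, a serotonin receptor of microglia (chr1:86109374-86113293), held 57.2 and 43.01 tags in WT and 255 and 173 tags in KO. Nlrc3, a NOD-like receptor known to dampen innate signalling (chr16:3956463-3961390), held 134 and 140.1 tags in WT and 357 and 348 tags in KO, with a small spread in both groups. Il18bp, a secreted cytokine-binding protein named here after its values were seen, had a promoter peak (chr7:102015886-102020547) with 387 and 321 tags in WT and 797 and 769 tags in KO, inside which lay the promoter printed above.

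Igf1, the growth factor secreted by activated microglia, had 1 higher peak upstream (chr10:87840932-87843486) with 196 and 205 tags in WT and 517 and 332 tags in KO; the KO libraries lay apart, and the log2 difference was 1.04 ± 0.32. Runx3, a Runt transcription factor, had 2 intergenic peaks (chr4:135179022-135180155 and chr4:135191904-135194474), the latter with 67.5 and 82.03 tags in WT and 269 and 142 tags in KO. Tfec, a basic helix-loop-helix factor of the MiT/TFE family expressed in myeloid cells, had a peak close to its start (chr6:16895934-16898594) with 42.2 and 40.01 tags in WT and 161 and 137 tags in KO. Msr1, the macrophage scavenger receptor, had one at its start (chr8:39641568-39642430) with 24.4 and 21.01 tags in WT and 93.7 and 49.7 tags in KO. Acsl1, which activates long-chain fatty acids, had 2, of which the taller (chr8:46497216-46502092) held 169 and 185 tags in WT and 499 and 387 tags in KO. The WT libraries were even at all of these peaks, and the KO libraries least even at Runx3 and Msr1.

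The remaining list genes with a higher peak were Bcl2, which blocks apoptosis (1.14 ± 0.06 log2), Hdac4, a class IIa deacetylase (1.42 ± 0.19), Pgam1 of glycolysis (1.39 ± 0.17), Cdc6 of replication licensing (1.24 ± 0.51), the lectins Clec4d (2.62 ± 0.69) and Colec12 (1.95 ± 0.47), the proteoglycan gene Cspg4 (1.85 ± 0.22) and the chemokine Cxcl1 (1.14 ± 0.38). Cxcl1 and Lpp were the members nearest to the adjusted p threshold: Cxcl1 held 44.98 and 62.02 tags in WT and 145 and 94.6 tags in KO, and Lpp, a focal adhesion protein, held 9.37 and 16.01 tags in WT and 73.8 and 29.2 tags in KO. Nearest to the fold threshold were Prkar1a, a regulatory subunit of protein kinase A, with 68.4 and 77.03 tags in WT and 144 and 147 tags in KO, and a Sash1 peak with 197 and 185 tags in WT and 422 and 345 tags in KO. Peaks just outside the thresholds were not analysed here.

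Higher peaks were also listed near P4ha2, 1600002D24Rik, Tbc1d14, Aoah, Cyfip2 and Gdap10. Near P4ha2, a subunit of the enzyme that hydroxylates proline in collagen, the peak with the most tags of 3 (chr11:54087068-54089265) held 160.3 and 188 tags in WT and 439.6 and 388 tags in KO. Near 1600002D24Rik 1 of 3 (chr16:95823663-95828637) held 205 and 209 tags in WT and 593 and 450.4 tags in KO. The RNA of both was low, at 0 in WT and 14.2 in KO for P4ha2 and 0 in WT and 1.09 in KO for 1600002D24Rik. Tbc1d14, a regulator of autophagy, was nearest to 3 peaks that lay on D5Ertd579e, of which that with the most tags (chr5:36620037-36621812) held 63.7 and 40.01 tags in WT and 225 and 151 tags in KO. Aoah, an enzyme that inactivates lipopolysaccharide, had a peak at its start (chr13:20793479-20795102) with 57.2 and 71.02 tags in WT and 156 and 116 tags in KO and one upstream (chr13:20785603-20789038) with 152 and 147 tags in WT and 368 and 236 tags in KO. At Cyfip2, which acts on actin through the WAVE complex, the peak at the start (chr11:46311643-46312616) held 8.43 and 10 tags in WT and 48.5 and 36.1 tags in KO. Gdap10 had 1 intergenic peak (chr12:32855659-32857893) with 54.4 and 59.02 tags in WT and 223 and 155 tags in KO. KO replicate 1 was the higher KO library at each of these 7 peaks.

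The 49 lower peaks were nearest to 44 genes, with a median log2 difference of -1.22 (from -2.95 to -1.01). The median peak held 137 and 142 tags in the WT libraries and 54.0 and 66.3 in the KO libraries. KO replicate 1 was at a median of -1.35 and KO replicate 2 at -1.14 from the WT mean, and both were at least 2-fold below it at 32 peaks. The KO libraries differed by 2-fold or more at 3 lower peaks and the WT libraries at 0. The WT set alone contained 22 of them as called peaks, with a median log2 difference of -1.44, and 27 were called in both genotypes, with -1.16.

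Hlf, a PAR bZIP transcription factor of the circadian output family, had the lower peak with the largest difference and the only cluster of 3 lower peaks. Its intron peak (chr11:90355787-90356568) held 28.1 and 44.01 tags in the WT libraries and 2.20 and 5.85 tags in the KO libraries, a log2 difference of -2.95 ± 0.63. The second intron peak (chr11:90368384-90370450) held 116 and 134 tags in WT and 42.97 and 62.4 tags in KO and the upstream peak (chr11:90418144-90420297) 239 and 312 tags in WT and 72.7 and 117 tags in KO. KO replicate 1 was the lowest library at all 3, and WT replicate 2 the highest.

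Csf1, the ligand of the receptor on which microglia depend, had a lower peak annotated as intergenic (chr3:107727843-107729798). It held 212 and 209 tags in the WT libraries and 96.96 and 99.5 tags in the KO libraries. The log2 difference was -1.09 ± 0.02, and the libraries of each group were nearly equal. Tgfbr2, a receptor of TGF-beta, which keeps microglia in their homeostatic state, was nearest to a peak in an intron of Gadl1 (chr9:116058159-116059340) with 149 and 172 tags in WT and 57.3 and 79.95 tags in KO. Dusp5, a phosphatase that inactivates ERK, had an upstream peak (chr19:53507062-53508604) with 132 and 104 tags in WT and 34.2 and 47.8 tags in KO. These, with Hlf, were the 4 list genes with a lower peak.

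At 4 genes the lower peak was annotated as a promoter. At Klrb1b, a lectin-like receptor of the natural killer family (chr6:128825871-128826898), there were 98.4 and 109 tags in WT and 42.97 and 42.9 tags in KO, and the promoter printed above lay inside the peak. At Grk3, a kinase of G protein-coupled receptors (chr5:113015011-113016859), there were 262 and 259 tags in WT and 100.3 and 97.5 tags in KO, and an upstream peak (chr5:113034996-113035652) had 36.5 and 55.02 tags in WT and 12.1 and 9.75 tags in KO. Groups were tight at both promoters. Pacsin1, an endocytic F-BAR protein (chr17:27655000-27656367), had 213 and 144 tags in WT and 76.02 and 83.8 tags in KO, where the WT libraries were uneven. The Pacsin1 peak lay 92 bp from its annotated start, but the RefSeq promoter taken for the gene (chr17:27684989-27685288) lay outside it. Myo18b, an unconventional myosin (chr5:112896180-112896929), had 60.9 and 62.02 tags in WT and 17.6 and 10.7 tags in KO.

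The tallest lower peak lay in Sh3bgr (chr16:96207985-96212335), with 876 and 909 tags in WT and 403 and 482 tags in KO. Coq2, an enzyme of coenzyme Q synthesis (chr5:100636811-100640270), had 592 and 511 tags in WT and 237 and 276 tags in KO, and Auh, a mitochondrial hydratase that binds RNA (chr13:52847981-52850542), 385 and 491 tags in WT and 175 and 260.3 tags in KO. These tall peaks were still far from empty in KO. St8sia6, a sialyltransferase, had 2 lower peaks, the larger with 137 and 131 tags in WT and 53.99 and 43.9 tags in KO. Aplnr, the apelin receptor (chr2:85154211-85156968), had 335 and 339 tags in WT and 131 and 159.9 tags in KO. Log2 differences of the other lower peaks ran up to -1.01, at Mir152.

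Other lower peaks were listed near Marcks, Jup, Capza2, Frmd8, Il22ra2 and Rbbp9. Marcks, a protein kinase C substrate on the membrane, had a distant peak (chr10:37314534-37315804) with 212 and 180.1 tags in WT and 79.3 and 95.5 tags in KO. Jup, the junction protein plakoglobin (chr11:100389588-100390841), had 107 and 123 tags in WT and 47.4 and 58.5 tags in KO, and Capza2, a subunit that caps actin filaments (chr6:17589957-17591291), 137 and 138 tags in WT and 63.9 and 70.2 tags in KO. RNA of these 3 was within 2-fold (2305 in WT and 2385 in KO for Marcks, 819.7 in WT and 461 in KO for Jup and 821 in WT and 828 in KO for Capza2). Frmd8, a partner of the shedding protease complex (chr19:5870924-5873206), had 409 and 389 tags in WT and 181 and 195 tags in KO, and Il22ra2, a soluble decoy receptor (chr10:19612783-19614318), 131 and 167 tags in WT and 48.5 and 57.5 tags in KO. Il22ra2 was listed at 0 in both RNA libraries. At the last exon of Rbbp9, a hydrolase (chr2:144542990-144544389), there were 124 and 144 tags in WT and 23.1 and 52.6 tags in KO, so the KO libraries differed from each other by over 2-fold while both lay below WT.

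Of 27 gene lists with 666 genes, 14 had no listed peak in this comparison, 13 genes had a higher and 4 a lower peak. Among 608 list genes with an RNA mean of at least 10, 12 had a higher peak (1.97%) and 4 a lower peak (0.658%). For all 11770 genes with that mean the shares were 1.22% and 0.246%, which is a description without a test. Among the lists with none were MHC class II, MHC class I and peptide loading, interferon-stimulated genes, IRF and STAT factors, phagolysosome, integrins and arginine methyltransferases. Of the genes shown as genome tracks in the study, Csf1 had a listed peak, and Ikbke, Gadd45b, Irf1, Itgax, H2-Eb1, H2-Ab1 and H2-Aa had none. The Csf1 peak was annotated as intergenic, 31649 bp from the start, although its middle lay on the gene Gm40121. Reduced H3K27ac at promoters is what the study describes. Its tracks also show normal-diet and CD11c-high cells, which are not part of this comparison. A gene without a listed peak may have differed by less than the thresholds, since unlisted peaks were not analysed here.

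RNA of the same genes was compared in 1 library a side (3470068 reads in WT and 2936283 in KO), so it has no replicate check and no test. Over all 11770 genes with a mean of at least 10, 301 were at least 2-fold higher in KO (2.56%) and 1027 at least 2-fold lower (8.73%), with a median log2 difference of -0.09. Of the 185 nearest genes of higher peaks, 144 were measured, of which 22 were at least 2-fold higher (15.3%) and 4 lower, with a median of 0.28. Of the 56 with a higher peak within 10 kb of the start, 13 were higher and 0 lower. Of the 44 nearest genes of lower peaks, 29 were measured, of which 6 were at least 2-fold lower (20.7%) and 0 higher, with a median of -0.26. These counts describe 1 pair of libraries, and genes of 1 pair are not replicates.

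Genes near several of the higher peaks had higher RNA in KO as well. Trim16 was at 4.62 in WT and 132 in KO (5 and 121 reads, log2 difference 4.56), Zfp618 at 7.38 in WT and 151 in KO (4.18) and A530064D06Rik at 14.8 in WT and 156 in KO (3.32); they ranked 1, 2 and 4 by log2 difference among genes with a mean of at least 50. Runx3 was at 44.3 in WT and 164 in KO, Gclm at 88.6 in WT and 271 in KO, Gdap10 at 29.5 in WT and 88.4 in KO, Htr2b at 48 in WT and 139 in KO, Pla2g7 at 122 in WT and 336 in KO, Nlrc3 at 118 in WT and 265 in KO and Gdpd5 at 88.6 in WT and 196 in KO. In each of these the KO library was more than 2-fold above the WT library. Tfec was at 1.85 in WT and 49.1 in KO (2 reads against 45), and Igf1 at 937 in WT and 1524 in KO, which is within 2-fold.

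Gene and peak did not always go the same way. Epas1, a hypoxia-inducible factor, had a higher peak (48.7 and 38.01 tags in WT and 184 and 85.8 tags in KO) and RNA of 257 in WT and 87.3 in KO, and Cxcl1 had RNA of 79.4 in WT and 29.4 in KO. Ccnk, with 1 higher peak, had RNA of 372 in WT and 329 in KO. Iqgap1 RNA went the same way as its higher peaks, at 397 in WT and 734 in KO, within 2-fold. Among lower peaks, RNA was lower by 2-fold or more for Klrb1b (140.3 in WT and 30.6 in KO), Dusp5 (291 in WT and 73.1 in KO), Grk3 (522 in WT and 169 in KO), Pacsin1 (395 in WT and 132 in KO), Hlf (40.6 in WT and 14.2 in KO) and Sh3bgr (24.9 in WT and 5.45 in KO). Csf1 (2441 in WT and 1939.7 in KO) and Tgfbr2 (2007 in WT and 2627 in KO) stayed within 2-fold.

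**Figure D4:**
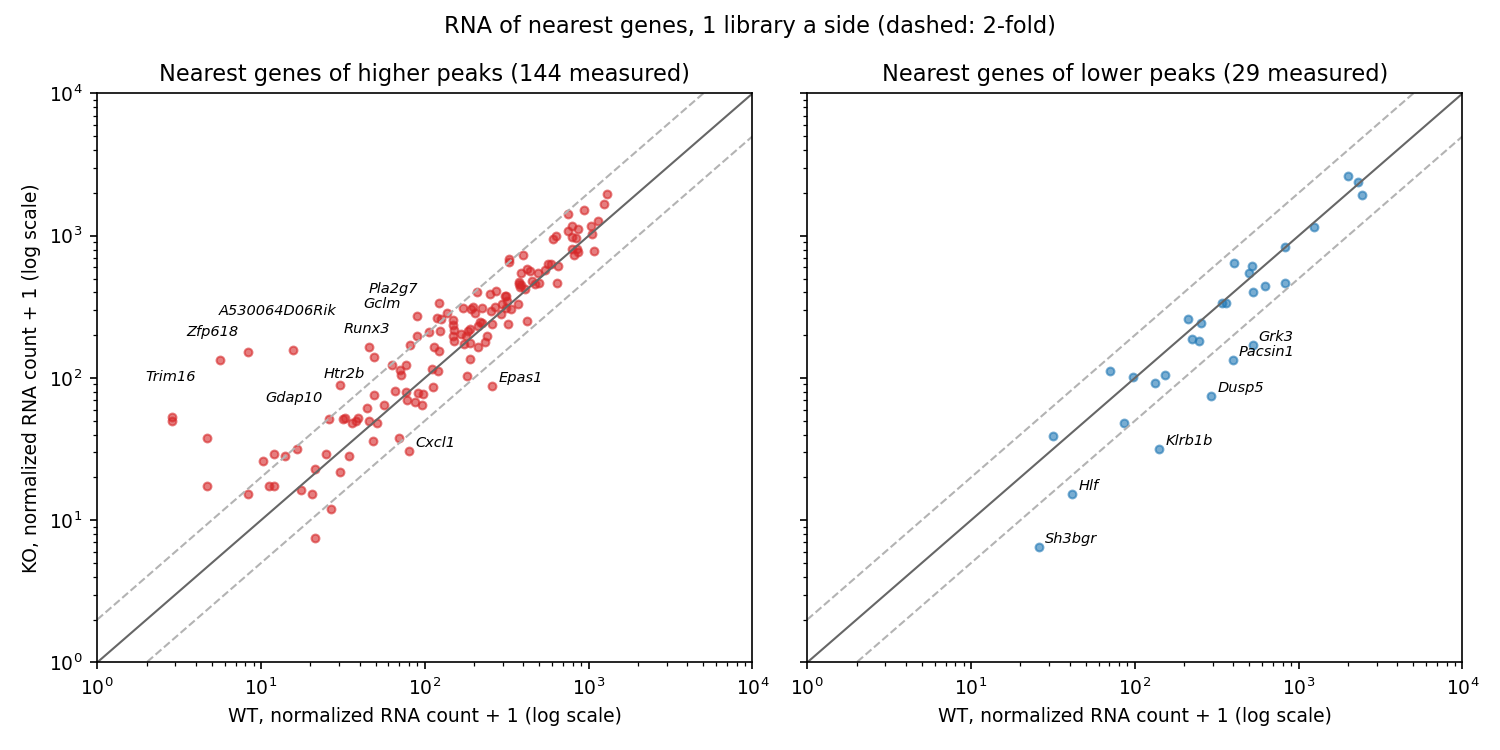
RNA level (normalized count + 1, log scales) of nearest genes in WT (horizontal) and KO (vertical), 1 library a side, for 144 genes of higher peaks (left) and 29 genes of lower peaks (right), with solid lines for equal values and dashed lines for 2-fold. On the left 22 genes lie at or above the upper dashed line and 4 at or below the lower one, on the right 0 and 6.

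In lists without a listed peak the share of genes with RNA at least 2-fold lower is read beside 8.73% of all genes. Of MHC class II genes, 6 of 13 measured were at least 2-fold lower, with H2-Eb1 at 339.69 in WT and 68.73 in KO, H2-Aa at 345.23 and 86.18, and H2-Ab1 at 398.76 and 164.73. Of interferon-stimulated genes 11 of 45 were lower, and of MHC class I and peptide loading genes 3 of 19, with none higher in these 3 lists. Of IRF and STAT factors 2 of 20 were lower and 0 higher, of integrins and adhesion genes 3 of 22 lower and 2 higher, and of 30 phagolysosome genes and 14 arginine methyltransferases 0 in either direction. Itgax, which encodes the antigen of the CD11c gate, was at 815.99 in WT and 398.19 in KO, although both groups were sorted as CD11c-low, and Ikbke, a kinase of the interferon response, was at 150.46 and 38.18.

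Marker RNA of other cell types differed between the same 2 libraries. Neutrophil markers were lower in KO at 10 of 10 measured genes (median log2 difference -5.88, summed level 1070 in WT and 9.81 in KO, with 9 of 12 at 0 in KO and 0 of 12 at 0 in WT). Endothelial and pericyte markers were lower at 12 of 16 (sum 2051 and 1119), oligodendrocyte markers at 9 of 13 (median log2 difference -2.09, sum 3470 and 2952, or 2168 and 981 without Cspg4), astrocyte markers at 8 of 12 (2172 and 1143) and neuronal markers at 2 of 3 (297 and 208). Of the neuronal markers 3 were at 0 in both libraries. Monocyte and border macrophage markers went both ways, with 4 higher and 9 lower of 19 (4642 and 5445; Ly6c2 was at 0 in KO), and of 4 measured lymphocyte markers 2 were higher (172 and 269, with 8 of 18 at 0 in both). In these bulk libraries fewer cells of a type and less RNA per cell cannot be told apart, and the part of these cells in the RNA and H3K27ac differences was not tested. The only marker gene with a listed peak was Cspg4, from the oligodendrocyte list.

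**Figure D5:**
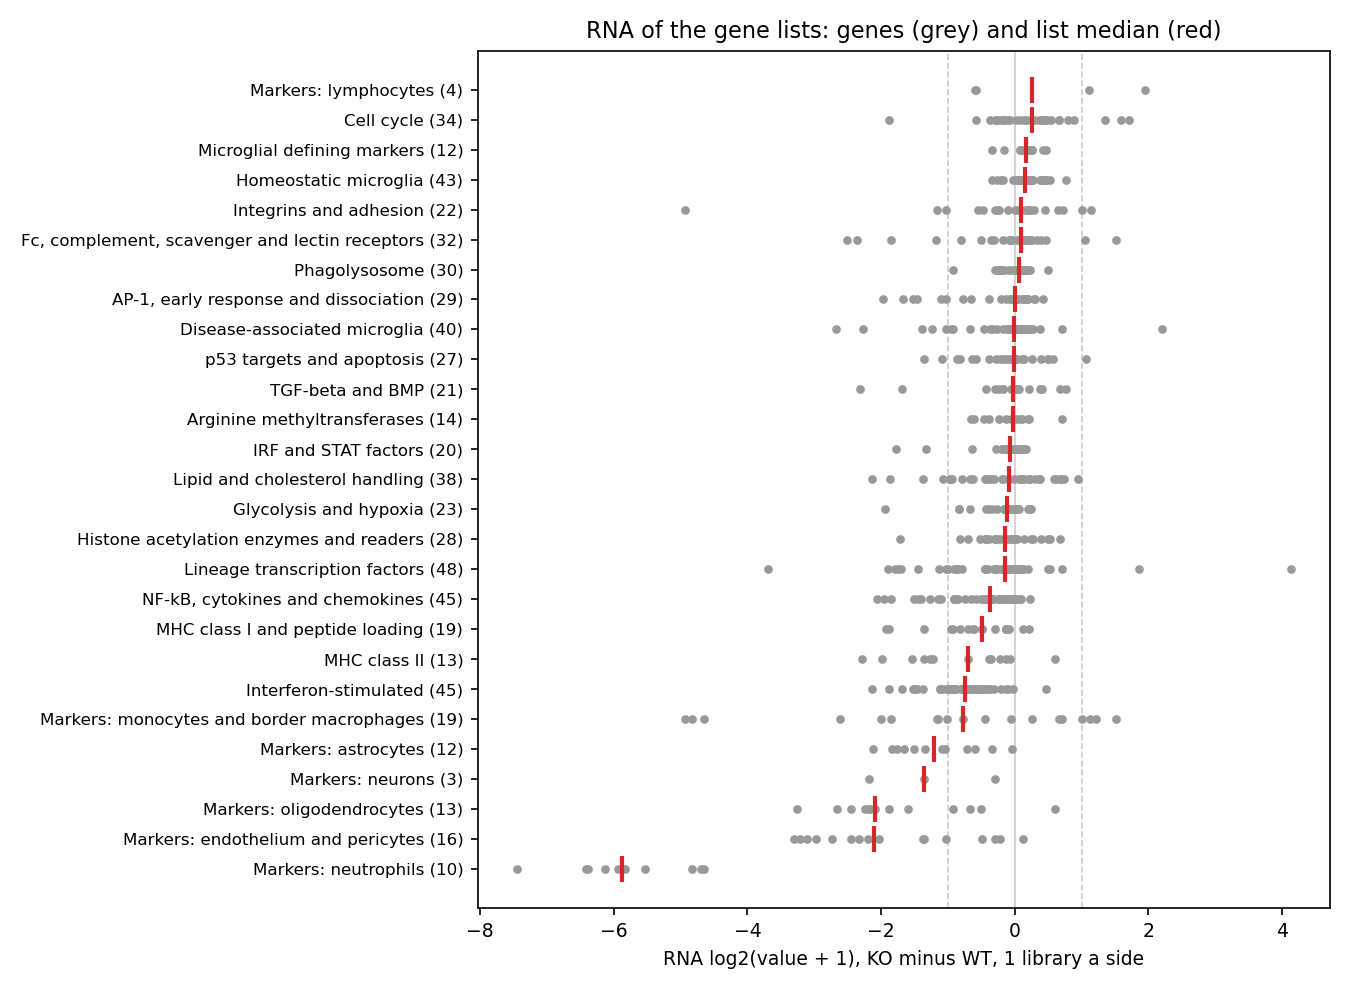
Log2 RNA difference (KO minus WT, pseudocount 1, 1 library a side) of each measured gene of the 27 lists (grey) and the list median (red bar), with the number measured in brackets. Neutrophil markers lie lowest with a median of -5.88, and microglial defining markers lie around a median of 0.17.

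Some of the same regions were listed in other comparisons of the study, scaled separately and with peak borders that can differ, so that levels are given within each comparison only. WT basal cells came from mice on a normal diet, and WT CD11c-high cells from the CD11c-high gate of cuprizone-fed WT mice; that pair shares no library with the KO and WT CD11c-low cells. At the first Hlf peak the group means were 132 tags in WT basal and 3.96 in WT CD11c-high cells, and at the second 345 and 22.8. The Myo18b promoter likewise went from 255 to 22.1. These regions, lower in KO, were also lower in the CD11c-high cells.

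Of the higher peaks, 67 overlapped a region listed as higher and 5 one listed as lower in WT CD11c-high than in WT basal cells, and of the lower peaks 22 and 11, where that comparison lists 5571 higher and 1949 lower regions. Some that were lower in KO were higher in CD11c-high than in basal cells: Klrb1b had 6.38 tags in WT basal and 161 in WT CD11c-high cells, Csf1 26.7 and 389, and Sh3bgr 192 and 1033. Among regions higher in KO, Igf1 had 12.2 in WT basal and 302 in WT CD11c-high cells and Zfp618 1.32 and 20.3, whereas the Mtss1 peak had 91.2 and 22.3. Against WT CD11c-high cells, in a comparison that shares the KO libraries, Zfp618 had 65.5 tags in WT CD11c-high and 206 in KO CD11c-low cells, the Mtss1 peak 24.6 and 233, Gdpd5 4.29 and 86.2, and Ccnk 11.8 and 162.

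By position, 129 of the higher peaks lay in introns (58.1%), 78 between genes (35.1%) and 4 at promoters (1.80%), against 52.4%, 36.6% and 4.87% of all 14035 listed peaks of the study. The 14035 count a region once for each list that holds it, and stand for 12333 distinct regions. Of the 49 lower peaks, 19 lay in introns (38.8%), 23 between genes (46.9%) and 4 at promoters (8.16%). Within 1 kb of a start lay 18 higher (8.11%) and 5 lower peaks (10.2%), against 9.63% of all listed peaks. The nearest start was at a median of 22277 bp from higher and 19786 bp from lower peaks, and 36 of the 157 higher peaks on a gene lay in a gene other than the nearest. The median width was 1794 bp for higher, 1401 bp for lower and 1631 bp for all listed peaks.

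In the central 500 bases, the AP-1 letters (TGANTCA) occurred in 54 of 222 higher peaks (24.3%), in 6 of 49 lower peaks (12.2%) and in 17.3% of 12333 distinct listed regions of the study. C/EBP letters occurred in 26.1%, 14.3% and 21.8%, PU.1 and ETS letters in 6.31%, 8.16% and 8.55%, and RUNX letters in 5.41%, 2.04% and 4.97%. The PAR bZIP letters (TTANNTAA), the family of Hlf, occurred in 14.4%, 10.2% and 11.2%, and the MEF2 motif in 9.91%, 4.08% and 7.95%. The interferon response element (ISRE) occurred in 6.31%, 8.16% and 8.23%, the ETS-IRF composite element (EICE) in 8.11%, 10.2% and 8.38%, and the NF-kB motif in 6.76%, 2.04% and 8.47%. The ETS core (CCGGAAGT), CRE (TGACGTCA), MiT/TFE E-box (TCACGTGA) and CTCF core (CCACNAGG) letters were found in 1, 0, 1 and 11 higher peaks and in 0, 0, 1 and 1 lower peaks, and in 0.827%, 0.722%, 0.527% and 7.40% of all listed peaks. Median GC content was 46.4%, 48.2% and 47.6%. The shares are descriptions without a test, and for lower peaks each rests on at most 7 regions. Several moved with the window. In the central 1000 bases, AP-1 letters occurred in 42.3% of higher, 22.4% of lower and 31.3% of all listed regions and C/EBP letters in 44.6%, 30.6% and 38.0%, in the same order as in 500 bases. PU.1 and ETS letters occurred in 13.5%, 24.5% and 15.5% and the NF-kB motif in 11.3%, 14.3% and 15.6%, in another order. Over whole peaks, which differ in width, the shares were 54.5%, 32.7% and 45.2% for AP-1, 62.2%, 40.8% and 52.6% for C/EBP, 24.3%, 28.6% and 22.8% for PU.1 and ETS and 21.2%, 24.5% and 25.9% for NF-kB.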

How the data were processed

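Members and gene lists were chosen with earlier results of these data known. Per the labels and the study's methods, mapping used Bowtie2, quality checks FastQC 0.11.9 and removal of duplicates SAMtools 0.1.19. HOMER called peaks over input. The tool that tested peaks is not given in the sources used here. The deposited signal per peak is a tag count; the authors brought the 4 libraries of a comparison to their mean size. The deposited log2 fold change and p-value columns are the authors' own, and were read only to check the filter and to recover the number of peaks tested. The methods name hg19, but 270 of 271 peaks lay within 100 bp of their stated distance in mouse GRCm38.p6, so mm10 was used.

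The deposited RNA tables hold a normalized signal (counts scaled by size factor), from which whole reads were recovered (100% of values in both libraries used here). They were taken as RNA from their gene rows, and their columns were mapped by group name. Of 19 per-library columns 6 were used, and 13 were not. Blank gene names in 542 rows were filled from the annotation column and 1 repeated name was dropped. RNA values have a pseudocount of 1 and a minimum mean of 10.

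The labels number the 2 libraries a group as replicates, and the study's methods call them independent biological replicates. Values are given per library, with the SE of a log2 difference from the spread of 2 libraries a group. A limma 3.58.1 fit over the listed peaks, adjusted over 25609 tests, served only to compare settings, because unlisted peaks were not analysed here. It was run with a pseudocount of 5, a minimum of 50 tags, a log2 difference of 1.5, a replicate block, edgeR 4.0.16, DESeq2 1.42.0, and without each replicate, and was tested on simulated data. Peaks are named after the gene with the nearest start. Named were all lower peaks, up to 15 higher peaks by log2 difference with a KO mean of at least 50 tags, up to 10 genes with the most peaks, list genes, up to 10 genes per direction whose RNA also passed 2-fold, and the track genes. Python 3.11.15, pandas 2.3.3 and R 4.3.3 were used. Counting error only limits the reads, which carry no molecular identifiers.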

Additional observations from a re-analysis of the deposited data

How the results depend on the processing

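A fit over the 271 listed peaks was run to compare settings, with an adjusted p under 0.05 over 25609 tests and a log2 difference over 1. The peaks were chosen on this contrast in these libraries, so neither the calls nor the p-values are a test of them. By limma 0 higher and 0 lower peaks passed, while 271 had an unadjusted p under 0.05, as their choice leads to. The numbers were the same with a pseudocount of 5, with a minimum log2 difference of 1.5 and with the replicate block (0 and 0 calls), where the correlation of same-numbered deviations was -0.082 and the libraries share only a number. With a mean of at least 50 tags 13 higher peaks passed. With edgeR on whole reads 12 higher and 0 lower peaks passed, and with DESeq2 91 and 11. Leaving out 1 replicate gave 0 to 40 higher and 0 to 3 lower calls, with 40 and 3 without KO replicate 2. An arm left with 1 library adds nothing to the spread and is assumed to vary like the other genotype, so these counts do not measure how the results depend on that library.

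Scaling over the listed peaks alone, which centres on a list of mostly higher peaks by construction, gave 8 higher and 49 lower calls with edgeR's TMM factors and 1 and 49 with DESeq2's own size factors. TMM moved the median of all listed peaks by -1.27, that of higher peaks to 0.18 and that of lower peaks to -2.49, and 85 of 222 higher peaks then lay below 0, while all 49 lower peaks stayed below. Without each replicate the medians ran from 1.25 to 1.62 and from -1.35 to -1.14. With a pseudocount of 5 the log2 difference of 19 of the 116 named peaks moved by more than the spread between replicates, in all 19 towards 0. Leaving out 1 of 2 libraries cannot move a difference by more than that spread, so it gives no check by this measure. Motif shares over 1000 bases and whole peaks stand beside those over 500.

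RNA at least 2-fold higher was found for 15.3% of nearest genes of higher peaks, for 23.2% within 10 kb and for 27.3% of genes with more than 1 peak (6 of 22). RNA at least 2-fold lower was found for 20.7% of nearest genes of lower peaks, for 40.0% within 10 kb (4 of 10) and for 50.0% with more than 1 peak (2 of 4). Of all 11770 genes with a mean of at least 10, 2.56% were at least 2-fold higher and 8.73% at least 2-fold lower. Higher peaks within 1 kb of a start made up 8.11%, against 1.80% at annotated promoters (9.63% and 4.87% of all listed peaks). The cause of these differences was not tested.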
